A study of Homo sapiens with 8 samples.

Results

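Receptors for opsonised targets, that is, for particles coated with antibody or complement, were described in NB4 cells across 4 groups of RNA sequencing (RNA-seq) libraries. The 8 genes were chosen by symbol: the Fc receptor genes FCGR1A, FCGR2A, FCGR2B, FCGR3B and FCAR, the signalling chain FCER1G, the neonatal Fc receptor heavy chain FCGRT, and complement receptor CR1. They were 8 of 37526 gene names listed for all 8 libraries. NB4 is an established line of acute promyelocytic leukemia (APL) that carries the PML/RARα fusion, and all-trans retinoic acid (ATRA) drives such cells towards granulocytes.

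All groups were NB4 cells stably transduced with the lentiviral vector pLVX-shRNA2-puro, and each group had 2 libraries. The shNC cells carried the control vector, which the labels call empty and the methods of the study call scrambled, and the shKDM3B cells carried a short hairpin RNA (shRNA) against KDM3B, an H3K9me1/me2 demethylase. Both were sampled undifferentiated, without ATRA, and after ATRA (shNC_ATRA and shKDM3B_ATRA). The labels give 1 µM ATRA for 24 or 48 hours without saying which time belongs to which library. The sources name 2 KDM3B target sequences but not the one sequenced here, so an effect of KDM3B loss cannot be told apart from an off-target effect of 1 hairpin. Nothing states that replicates came from separate cultures, so p-values measure only the spread between these libraries.

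Fc receptors bind the constant part of antibodies and let phagocytes take up or kill what the antibodies coat. The activating ones signal through an ITAM, a tyrosine motif that recruits the kinase SYK, carried either in their own tail (FCGR2A) or by the common gamma chain FCER1G, which FCGR1A and FCAR need at the cell surface. FCGR2B carries an inhibitory motif (ITIM) that recruits the phosphatase INPP5D, FCGRT pairs with B2M in endosomes and returns IgG and albumin to the circulation, and CR1 binds the complement fragments C3b and C4b. Neutrophils typically gain the low-affinity receptors and CR1 as they mature, whereas FCGR1A is a receptor of monocytes and of early or interferon-stimulated neutrophils.

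On hg38, 6 of the 8 genes lie on chromosome 1 and FCGRT and FCAR lie on chromosome 19 (GENCODE v44). FCER1G (chr1:161215234-161220699) shares its stretch of the chromosome with FCGR2A (chr1:161505430-161524013), FCGR3B (chr1:161623196-161631963, minus strand) and FCGR2B (chr1:161663143-161678654), all but FCGR3B on the plus strand. FCGR1A (chr1:149782671-149791675) and CR1 (chr1:207496147-207641765) are on the plus strand too, as are FCGRT (chr19:49506816-49526428) and FCAR (chr19:54874235-54891420). FCER1G and FCGRT share no 150-base stretch of their main transcript with another gene. For FCGR1A such stretches were 19.3% (with FCGR1CP and FCGR1BP), for FCGR2A 31.5%, for FCGR2B 25.1% (with FCGR2C and FCGR2A) and for FCAR 25.7%, so their counts are uncertain to that extent. CR1 shares 1.04%, while 32.5% of its stretches recur within CR1 itself. Exons of another gene on the opposite strand overlap 8.21% of FCGR1A, 7.29% of FCGR2B and 4.05% of CR1, and no source states that the counting used strand. Those on the same strand overlap 22.5% of FCAR, 19.6% of FCGR2A and 5.3% of FCGR3B. Their part in the counts of these 3 genes was not tested.

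The promoters of FCER1G, FCGRT, CR1 and FCGR1A are shown because the first 3 genes were higher after ATRA in the shNC cells and FCGR1A was not. Each runs from 250 bases before to 50 bases after a RefSeq start site (GRCh38.p14, plus strand). Capitals mark a half-site of the retinoic acid response element, AGGTCA or AGTTCA, or the interferon gamma-activated site TTCNNNGAA, each searched on both strands.
FCER1G (chr1:161215045-161215344): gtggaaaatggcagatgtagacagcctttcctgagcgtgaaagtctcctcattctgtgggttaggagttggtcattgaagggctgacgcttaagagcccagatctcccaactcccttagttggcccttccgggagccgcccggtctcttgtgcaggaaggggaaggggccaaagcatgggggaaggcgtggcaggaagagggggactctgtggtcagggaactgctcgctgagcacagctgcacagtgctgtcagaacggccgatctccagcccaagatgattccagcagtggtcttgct
FCGRT (chr19:49512411-49512710): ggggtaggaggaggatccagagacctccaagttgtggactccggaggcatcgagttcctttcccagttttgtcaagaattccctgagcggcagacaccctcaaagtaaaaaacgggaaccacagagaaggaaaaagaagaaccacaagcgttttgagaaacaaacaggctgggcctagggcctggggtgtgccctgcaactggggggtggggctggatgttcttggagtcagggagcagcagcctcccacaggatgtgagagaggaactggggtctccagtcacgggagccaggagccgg
CR1 (chr1:207495907-207496206): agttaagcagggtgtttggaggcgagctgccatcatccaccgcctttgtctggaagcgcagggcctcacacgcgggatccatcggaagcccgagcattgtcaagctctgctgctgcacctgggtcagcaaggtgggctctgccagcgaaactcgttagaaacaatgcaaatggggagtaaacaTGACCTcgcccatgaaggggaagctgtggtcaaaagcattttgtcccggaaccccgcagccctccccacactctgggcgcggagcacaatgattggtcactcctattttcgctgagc
FCGR1A (chr1:149782444-149782743): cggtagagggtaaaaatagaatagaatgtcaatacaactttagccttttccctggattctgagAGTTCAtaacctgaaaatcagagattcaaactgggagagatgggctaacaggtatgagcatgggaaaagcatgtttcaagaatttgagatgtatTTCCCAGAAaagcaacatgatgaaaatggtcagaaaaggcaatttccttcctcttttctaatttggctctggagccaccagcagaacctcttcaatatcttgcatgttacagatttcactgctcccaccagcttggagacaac
The FCER1G and FCGRT windows held none of these letters. The CR1 window held 1 AGGTCA half-site, read on the minus strand, that began 67 bases before the start site, and 13.8% of 35116 promoter windows of this length held at least 1. The FCGR1A window held 1 AGTTCA (10.4% of all windows) that began 187 bases before the start and 1 interferon gamma-activated site (7.66% of all windows) that began 93 bases before it. The letters GGAAGT, searched as 1 form of the PU.1 site and held by 22.8% of all windows on either strand, were in none of the 4. Shorter or other forms of that site were not searched. GGAAGT was found 66 bases before a FCGR3B start and 12 bases before a FCGR2B start. That FCGR2B window also held the interferon gamma-activated site 141 and 106 bases before its start. The window of another FCGR2B start held an AGGTCA 26 bases before it. FCGR2B, with 1 to 87 counts in a library, was not called up with ATRA. A link between such letters and the response to ATRA was not tested. The windows were matched for 7 of the 8 genes, and FCAR had no entry. A match of letters is not evidence of a bound site, and the FCGRT window starts inside the gene as GENCODE draws it.

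Each library held 9708739 to 33017787 read pairs counted on genes, fewer with ATRA (at most 16882512) than without (at least 19444480). Read pairs outside genes made up 8.49% to 9.62% of the uniquely aligned pairs in the untreated libraries and 9.36% in shNC_ATRA replicate 1, but 50.02% to 51.4% in the other 3 ATRA libraries. That split could not be told apart from ATRA in the shKDM3B cells, and its part in the results was not tested. Within the shNC_ATRA group it separated the replicates, so values without each of them are given below. KDM3B, the targeted gene, stood at 187 and 188 CPM (a gene's counts scaled to the total of its library) in the shNC libraries, 76.3 and 86.1 in shKDM3B, 196 and 121 in shNC_ATRA, and 52.4 and 57.3 in shKDM3B_ATRA. Here and below, CPM are scaled by edgeR's TMM method over the 8 libraries and are given for replicate 1, then replicate 2. The knockdown libraries were below the control libraries in both settings, as their labels say.

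Markers of the cell types moved with the groups as well. The 7 promyelocyte markers summed to 4912 to 5998 CPM in shNC, 9182 to 10670 in shKDM3B, 833 to 1034 in shNC_ATRA and 2563 to 3456 in shKDM3B_ATRA, with MPO the 1 marker called in all 4 comparisons of groups. The defining granule proteases ELANE and PRTN3 were near 0 throughout, with at most 24 counts in a library. The 6 mature granulocyte markers summed to 145 to 146, 85.2 to 91.9, 425 to 514 and 261 to 264 CPM in the same order, while LTF had at most 4 counts. MMP9, a granule enzyme on that list, went against the sum with ATRA, at 50.6 to 52.2 CPM in shNC, 17.8 to 25.6 in shKDM3B, 1.75 to 1.84 in shNC_ATRA and 1.16 to 1.71 in shKDM3B_ATRA, and was called down with ATRA in both kinds of cells (log2 fold change -4.80, SE 0.26, in shNC and -3.86, SE 0.31, in shKDM3B). Of the monocyte and macrophage markers, CSF1R read 4.57 to 5.07 CPM in shNC, 2.16 to 3.40 in shKDM3B, 4.70 to 9.25 in shNC_ATRA and 3.31 to 3.89 in shKDM3B_ATRA, CD14 had at most 8 counts in a library and CD163 had 0 counts in all of them. B cell markers summed to 10.9 to 12.4, 6.32 to 10.5, 22.2 to 25.8 and 13.9 to 16.8 CPM, with MS4A1 and PAX5 at 0. T and NK cell markers, mostly NKG7, summed to 44.5 to 54.2, 31.2 to 36.1, 35.7 to 50.9 and 16.8 to 26.2 CPM. NKG7, a granule protein of cytotoxic cells, was called down with the knockdown both without ATRA (log2 fold change -0.89, SE 0.22) and with it (-1.12, SE 0.34). The erythroid markers summed to at most 0.737 CPM. The part of such shifts in the receptor results was not tested, and in bulk RNA fewer cells of a kind and less RNA per cell cannot be told apart.

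Of the 8 genes, 6 had at least 1 count in every library and passed the low-count filter in each comparison. FCAR, the receptor for IgA, had 0 counts in all 8 libraries, and FCGR3B, the GPI-anchored IgG receptor of mature neutrophils, had 0 counts in the 4 untreated libraries and in shKDM3B_ATRA replicate 2 and 1 count in each of the other 3. A count of 0 allows up to 3 counts, which is 0.0909 to 0.309 CPM in these libraries, for counting error only. Neither gene could be tested, and both stayed within this limit in every library, as did FCGR2B, a tested gene, with 1 count in shKDM3B_ATRA replicate 1.

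In the control cells, ATRA raised 3 of the 6 receptor genes tested, the signalling chain FCER1G, the IgG transporter FCGRT and the complement receptor CR1, and lowered none. Calls required a change of 1.5-fold or more and, in the quasi-likelihood test of edgeR, an unadjusted P under 0.05. By this rule 25.9% of all 12429 genes tested were called, 15.0% up and 10.8% down. After Benjamini-Hochberg adjustment over all genes by edgeR FCER1G and FCGRT passed (12.9% of all genes did) and CR1 did not. The median log2 fold change of the 6 was 0.61, against 0.02 over all genes.

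FCER1G stood at 22.5 and 18.0 CPM in the shNC libraries and at 45.9 and 57.9 in shNC_ATRA. Both ATRA libraries were above both untreated ones, with means of 51.9 ± 8.48 against 20.2 ± 3.18 CPM (SD, n = 2). The rise was 2.63-fold, a log2 fold change of 1.39 (SE 0.25, adjusted p = 0.0114). FCER1G in the shKDM3B cells went from 6.37 and 9.66 CPM to 13.1 and 20.7 with ATRA. The groups did not overlap, and the log2 fold change was 1.12 (SE 0.29, adjusted p = 0.00992). The ATRA-treated shKDM3B libraries, at 16.9 ± 5.40 CPM (SD, n = 2), overlapped the untreated shNC libraries. Without shNC_ATRA replicate 2, that is, with the remaining ATRA control library at the same share of reads outside genes as the untreated ones, the log2 fold change in the shNC cells was 1.19, and without replicate 1 it was 1.55.

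FCGRT rose with ATRA in both kinds of cells. It went from 12.5 and 8.93 CPM in shNC to 36.9 and 46.1 in shNC_ATRA, 3.97-fold, with a log2 fold change of 1.99 (SE 0.27, adjusted p = 0.00430). Leaving out either ATRA library gave 1.79 and 2.14. With the knockdown it rose from 5.96 and 6.62 CPM to 34.7 and 25.7, 4.96-fold, with a log2 fold change of 2.31 (SE 0.21, adjusted p = 2.02e-05). Every ATRA library was above every untreated library. B2M, the light chain that FCGRT pairs with, was looked up for that role after its values were seen. It stood at 368 to 437 CPM in shNC, 247 to 263 in shKDM3B, 631 to 1290 in shNC_ATRA and 715 to 812 in shKDM3B_ATRA, and was called up with ATRA in both kinds of cells (log2 fold change 1.30, SE 0.35, adjusted p = 0.0526 in shNC, and 1.63, SE 0.12, adjusted p = 6.5e-06 in shKDM3B).

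CR1 was less even between replicates. It read 10.7 and 26.9 CPM in shNC and 48.0 and 43.5 in shNC_ATRA, so the groups did not overlap although the untreated replicates were 18.8 ± 11.5 CPM (SD, n = 2). The log2 fold change was 1.32 (SE 0.41, unadjusted P = 0.0139, adjusted p = 0.0832). The adjusted p was 0.0203 with DESeq2, 0.0144 without the low-count filter and 0.0346 once the replicate number was a block. Without shNC replicate 1 the log2 fold change fell to 0.77 and the call was lost. With all 8 libraries in 1 fit the unadjusted P was 0.0586. In the shKDM3B cells CR1 was 22.9 and 45.8 CPM untreated and 13.6 and 34.6 with ATRA. These groups overlapped, and the log2 fold change of -0.46 (SE 0.41, unadjusted P = 0.286) was not called. It was -0.92 without shKDM3B replicate 1 and -1.29 without shKDM3B_ATRA replicate 2, and reached 0.13 with another library left out.

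FCGR1A, FCGR2A and FCGR2B, the Fc gamma receptors tested, were called up with ATRA in neither kind of cells. FCGR1A, the high-affinity IgG receptor CD64, read 12.4 and 14.6 CPM in shNC, 10.6 and 13.9 in shNC_ATRA, 13.7 and 10.8 in shKDM3B and 10.2 and 13.0 in shKDM3B_ATRA. The groups overlapped, and the log2 fold changes with ATRA were -0.11 (SE 0.30) and -0.02 (SE 0.23). FCGR2A, the activating low-affinity receptor CD32A, read 11.7 and 19.0 CPM in shNC against 11.3 and 12.1 in shNC_ATRA, with a log2 fold change of -0.36 (SE 0.33, adjusted p = 0.531). In the shKDM3B cells it went from 14.1 and 16.3 to 9.37 and 10.6 CPM. That difference passed the adjusted test (log2 fold change -0.55, SE 0.21, adjusted p = 0.0483) but at 1.47-fold was under the fold threshold. It crossed that threshold without shKDM3B replicate 1 (-0.71) and without shKDM3B_ATRA replicate 2 (-0.65), and its sign with ATRA in the shNC cells turned in 1 of the fits that left out a library (0.02).

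FCGR2B, the inhibitory receptor, had the lowest counts of the 6, from 1 to 87 in a library. In CPM it was 0.803 and 3.31 in shNC, 1.16 and 1.66 in shNC_ATRA, 1.90 and 2.67 in shKDM3B, and 0.105 and 1.20 in shKDM3B_ATRA. The shNC groups overlapped and gave a log2 fold change of -0.53 (SE 0.70, adjusted p = 0.676). In the shKDM3B cells the groups did not overlap and FCGR2B was called down (log2 fold change -1.73, SE 0.65, adjusted p = 0.0496). The call rested on 1 and 12 counts, and without shKDM3B_ATRA replicate 1 the log2 fold change was -0.90. The call was lost with DESeq2 (unadjusted P = 0.0545) and with all 8 libraries in 1 fit (unadjusted P = 0.109).

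With ATRA in the shKDM3B cells, 2 receptor genes were thus called up (FCER1G and FCGRT) and 1 down (FCGR2B), where 42.2% of 12756 genes were called, 24.0% up and 18.3% down, and 40.2% at an adjusted p under 0.05. All 3 passed the adjusted test. The median log2 fold change of the 6 was -0.24, against 0.04 over all genes.

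**Figure D1:**
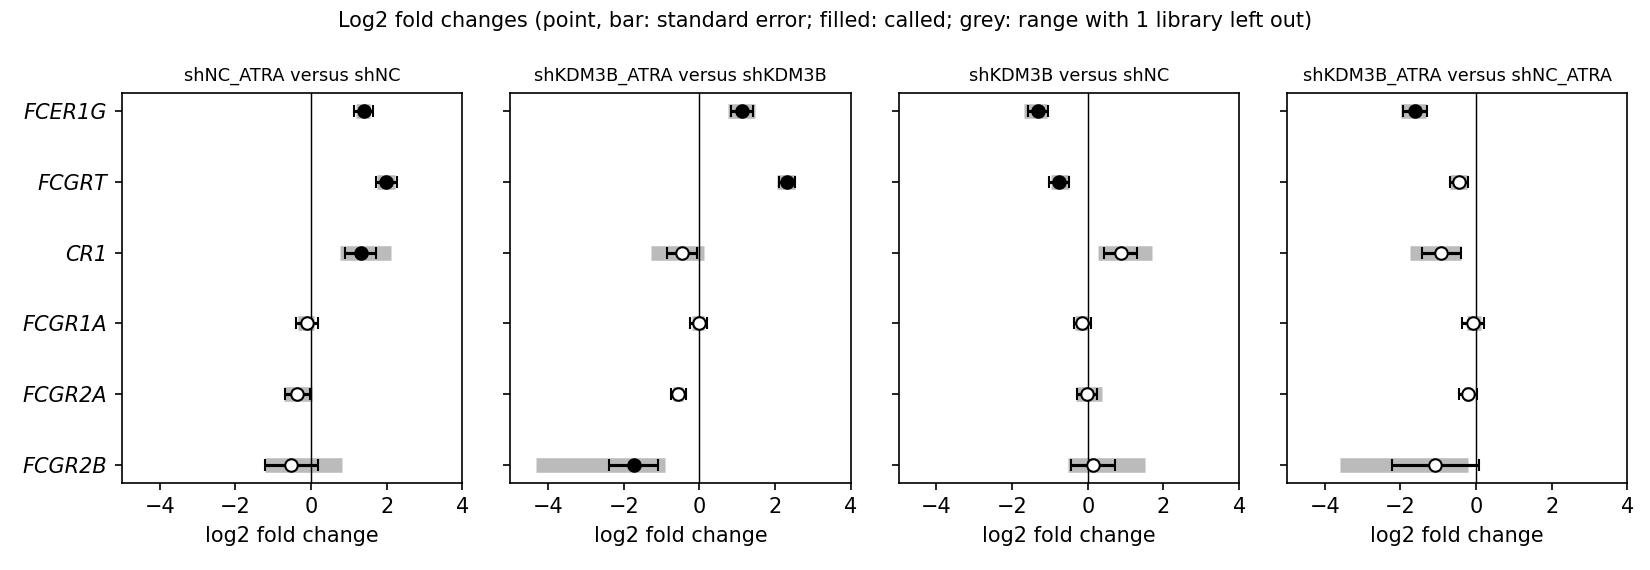
Log2 fold changes (x axis) of the 6 receptor genes tested in the 2 ATRA and the 2 knockdown comparisons, with points for the estimate (filled where called), bars for 1 SE and grey bands for the range when each library is left out. FCER1G lies below 0 in both knockdown comparisons and above 0 in both ATRA comparisons, FCGRT lies above 0 with ATRA, and the bands of FCGR2B and CR1 are the widest.

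Knocking down KDM3B in untreated cells lowered FCER1G and FCGRT and raised none of the receptor genes by the call rule, where 7.01% of 13855 genes were called (3.48% up, 3.53% down). Neither passed edgeR's test after adjustment, which 0.0217% of all genes did. FCER1G passed it with DESeq2 (adjusted p = 0.00101), without the low-count filter (7.5e-05) and with the replicate block (1.95e-04), and FCGRT with the replicate block (0.0336). The median log2 fold change of the 6 was -0.08, against 0.00 over all genes. FCER1G fell from 22.5 and 18.0 CPM in shNC to 6.37 and 9.66 in shKDM3B. Both knockdown libraries were below both controls, and the level was 2.51-fold lower (log2 fold change -1.33, SE 0.26, unadjusted P = 9.13e-04, adjusted p = 0.130). Its log2 fold change stayed between -1.68 and -1.07 with any 1 library left out.

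FCGRT fell from 12.5 and 8.93 to 5.96 and 6.62 CPM with the knockdown. The groups did not overlap (10.7 ± 2.52 against 6.29 ± 0.472 CPM, SD, n = 2), and the log2 fold change was -0.76 (SE 0.26, unadjusted P = 0.0181, adjusted p = 0.344). The call was lost without shNC replicate 1 (-0.50) and without shKDM3B replicate 1 (-0.69). B2M was called down as well (log2 fold change -0.66, SE 0.15, unadjusted P = 0.00231).

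CR1 went the other way, at 10.7 and 26.9 CPM in shNC and 22.9 and 45.8 in shKDM3B. The higher control library lay above the lower knockdown library, and the log2 fold change of 0.87 (SE 0.44, unadjusted P = 0.0819, adjusted p = 0.582) was not called. Replicate 2 was the higher of the pair in 3 of the 4 groups. The log2 fold change of CR1 was 1.69 without shNC replicate 2 and 1.28 without shKDM3B replicate 1. It was lower, at 0.36 without shNC replicate 1 and 0.27 without shKDM3B replicate 2. CR1 was called up with the replicate block (0.92, unadjusted P = 6.4e-06, adjusted p = 4.7e-04) and without the low-count filter (0.88, unadjusted P = 9.3e-05, adjusted p = 0.00708). FCGR1A (log2 fold change -0.15, SE 0.23) and FCGR2A (-0.01, SE 0.26) overlapped between the groups. FCGR2B, with a log2 fold change of 0.14 (SE 0.58), overlapped too, although without shNC replicate 2 its log2 fold change was 1.52.

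With ATRA, the knockdown cells again had less FCER1G, at 13.1 and 20.7 CPM against 45.9 and 57.9 in shNC_ATRA. The groups did not overlap and the level was 3.06-fold lower (log2 fold change -1.62, SE 0.31, unadjusted P = 0.00858, adjusted p = 0.502). It was the 1 receptor gene called, where 6.79% of 14281 genes were called (2.42% up, 4.37% down) and 0 at an adjusted p under 0.05 by edgeR (1383 had an unadjusted P under 0.05). Among the 3 ATRA libraries with about the same share of reads outside genes, that is, without shNC_ATRA replicate 1, the log2 fold change of FCER1G was -1.76. The median log2 fold change of the 6 was -0.69, against 0.03 over all genes.

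FCGRT was 36.9 and 46.1 CPM in shNC_ATRA and 34.7 and 25.7 in shKDM3B_ATRA. Both knockdown libraries lay below both controls, but the log2 fold change of -0.45 (SE 0.24, unadjusted P = 0.142) was not called. The log2 fold change was -0.60 without shNC_ATRA replicate 1 and -0.29 without shNC_ATRA replicate 2. It was -0.68 without shKDM3B_ATRA replicate 1 and -0.25 without shKDM3B_ATRA replicate 2. CR1 was 48.0 and 43.5 CPM in shNC_ATRA against 13.6 and 34.6 in shKDM3B_ATRA, without overlap, at a log2 fold change of -0.92 (SE 0.52, unadjusted P = 0.155). CR1 was not called. The log2 fold change of CR1 was -0.84 without shNC_ATRA replicate 1 and -0.99 without shNC_ATRA replicate 2. It was -1.74 without shKDM3B_ATRA replicate 2 and -0.39 without shKDM3B_ATRA replicate 1. FCGR1A (-0.08, SE 0.29), FCGR2A (-0.22, SE 0.24) and FCGR2B (-1.08, SE 1.15) were not called. FCGR2B moved to -0.21 without shKDM3B_ATRA replicate 1 and to -3.61 without shKDM3B_ATRA replicate 2, neither called, and FCGR1A turned to 0.19 when the counts of FCGR1B and FCGR1CP were added to it.

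An interaction term fitted to all 8 libraries tested whether shKDM3B and shNC cells differed in their response to ATRA. None of the 6 receptor genes was called (3.99% of 13528 genes were, 1.27% up and 2.72% down, and 0 by edgeR at an adjusted p under 0.05, with 607 at an unadjusted P under 0.05). The difference in log2 fold change, shKDM3B minus shNC, was -0.29 (SE 0.42) for FCER1G and 0.31 (SE 0.34) for FCGRT. For CR1 it was -1.79 (SE 0.80, unadjusted P = 0.0600, adjusted p = 1.00), the largest of the 6 in size. CR1 was called without the low-count filter (-1.80, unadjusted P = 1.5e-05), with DESeq2 (-1.78, unadjusted P = 0.0240) and with the replicate block (-2.05, unadjusted P = 0.0102). The difference for CR1 was -2.61 without shNC replicate 2 and -1.28 without shNC replicate 1. It was -2.20 without shKDM3B replicate 1 and -1.15 without shKDM3B replicate 2. Without shNC_ATRA replicate 1 it was -1.71 and without replicate 2 -1.87. Without shKDM3B_ATRA replicate 1 it was -1.25 and without replicate 2 -2.63. FCGR2B was at -1.22 (SE 1.32) and moved to -3.81 without shKDM3B_ATRA replicate 2, when 1 count stood for that group. FCGR1A (0.07, SE 0.37) and FCGR2A (-0.21, SE 0.39) were closest to 0. The ATRA and knockdown comparisons share their libraries in pairs, so their values for a gene are not independent.

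Between genes, levels were compared as CPM per kilobase of exon (union of exons in GENCODE v44, from 964 bases for FCER1G to 12583 for CR1). FCER1G was the highest in every library. In shNC it read 21.0 ± 3.29 CPM per kilobase (SD, n = 2), followed by FCGR1A at 6.26 ± 0.691, FCGR2A at 2.83 ± 0.958, FCGRT at 2.64 ± 0.622, CR1 at 1.49 ± 0.910 and FCGR2B at 0.309 ± 0.267. FCGR2A and FCGRT did not differ beyond their spread and changed places between the 2 libraries. With ATRA FCGRT was second, at 10.2 ± 1.59 in shNC_ATRA against 5.69 ± 1.09 for FCGR1A, and at 7.46 ± 1.58 in shKDM3B_ATRA against 5.37 ± 0.901. With the longest transcript as length the levels themselves were higher, in shNC 34.3 for FCER1G, 10.1 for FCGR1A and 5.81 for FCGR2A. In shKDM3B_ATRA replicate 2 FCGRT and FCGR1A changed places when the longest transcript gave the length. The order of CR1 and FCGR2A also turned with the length used in 3 of the 8 libraries.

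The signalling chain and the receptor that depends on it were not in constant proportion. Per kilobase, FCER1G was 4.04 and 2.76 times FCGR1A in shNC and 1.04 and 2.01 times in shKDM3B. The ratio was 9.68 and 9.30 in shNC_ATRA and 2.86 and 3.57 in shKDM3B_ATRA. Of the summed CPM per kilobase of the 8 genes, FCER1G made up 66.1% and 55.3% in shNC and 34.5% and 42.3% in shKDM3B. With ATRA its share was 70.3% and 71.6% in shNC_ATRA and 45.6% and 55.4% in shKDM3B_ATRA. The sum itself was 35.3 and 33.8 in shNC, 19.1 and 23.7 in shKDM3B, 67.7 and 83.8 in shNC_ATRA, and 29.7 and 38.7 in shKDM3B_ATRA, and these ratios and sums carry no test.

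Over the 8 libraries, with log2 CPM of 13528 genes, the genes closest in pattern to FCER1G were LINC00426 (Pearson's r = 0.998) and ABHD11 (0.994), and those closest to FCGRT were ZNF385A (0.992) and CXCR2 (0.992), a chemokine receptor of neutrophils. FCGR2A was closest to ZDHHC14 (0.977) and RNF187 (0.963). FCGR2B was closest to C17orf100 (0.973) and NFKB2 (0.969), and CR1 to FAM109A (0.951) and TMEM63B (0.951). FCGR1A, which varied least, had the lowest best match (ST3GAL5, 0.899, and CEP76, 0.898). Between the receptor genes themselves, r was 0.78 for FCER1G with FCGRT, 0.84 for FCGR2A with FCGR2B and -0.75 for FCGR2A with FCGRT. The 8 points share their groups and depth, so these are descriptions with no p.

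Genes of the same pathways, taken as lists of other Fc receptors, complement receptors, receptors that use FCER1G or its relative TYROBP, and activating and inhibitory signalling proteins, were read against the same shares of all genes. ATRA raised 15.0% and lowered 10.8% of all genes in the shNC cells, and raised 24.0% and lowered 18.3% in the shKDM3B cells. The knockdown raised 3.48% and lowered 3.53% without ATRA, and raised 2.42% and lowered 4.37% with it. Of 18 other Fc and Fc-like receptors matched, 5 were tested in the shNC cells, and ATRA raised 1 and lowered 2, too few to set against the 15.0% and 10.8% of all genes. TRIM21, a cytosolic antibody receptor, rose from 14.2 to 15.6 CPM to 31.1 to 35.1 (log2 fold change 1.19, SE 0.23, adjusted p = 0.0152). FCGR1B, a near copy of FCGR1A, fell from 6.82 to 7.76 CPM to 1.72 to 2.76 (log2 fold change -1.68, SE 0.41, adjusted p = 0.0395), and MS4A2, the beta chain of the IgE receptor, fell from 38 and 43 counts to 1 and 2. TRIM21 also rose in the shKDM3B cells (1.30, SE 0.16), where MS4A2 and FCRLB (-1.48, SE 0.41) fell. Knocking down KDM3B changed none of those tested, 5 without and 2 with ATRA, by the call rule. FCGR3A, the other CD16 gene, had at most 1 count in a library.

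Of 11 other complement receptors and regulators tested in the shNC cells, ATRA raised 9 (15.0% of all genes) and lowered 0, with a median log2 fold change of 2.06. C3AR1 (0.45, SE 0.41) and CD59 (-0.06, SE 0.22) were not called. ITGAX, the alpha chain of complement receptor CR4, rose from 5.72 to 10.9 CPM to 91.4 to 98.3 (log2 fold change 3.54, SE 0.34, adjusted p = 0.00112), and VSIG4, a macrophage complement receptor, went from 2 counts in each library to 17 in each. ATRA raised 8 of 11 in the shKDM3B cells (24.0% of all genes) and lowered 1 (18.3%), the anaphylatoxin receptor C3AR1 (-1.31, SE 0.19, adjusted p = 3.99e-04), while C5AR1 (0.46, SE 0.45) and CD59 (0.06, SE 0.12) were not called. With the knockdown alone C3AR1 was called up (0.97, SE 0.31) and ITGAM, the alpha chain of CR3, down (-0.90, SE 0.25) among 10 tested. In ATRA-treated cells the knockdown lowered ITGAM (-0.82, SE 0.21) and C5AR2 (-1.14, SE 0.26) and raised CD59 (0.62, SE 0.17) among 11, none at an adjusted p under 0.05. In the interaction test C3AR1 (-1.78, SE 0.51), C5AR1 (-1.69, SE 0.69) and C5AR2 were called down, again not after adjustment.

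Receptors and partners that use FCER1G or TYROBP were split after ATRA, with 4 of 10 up and 4 down in the shNC cells (15.0% and 10.8% of all genes). The list also holds B2M, the partner of FCGRT, which uses neither adaptor and is counted among those up with ATRA in both kinds of cells and among those lowered by the knockdown without ATRA. CD300LB, an activating receptor, rose from 2.26 to 2.77 CPM to 49.9 to 79.3 (log2 fold change 4.71, SE 0.33), and the adaptor TYROBP, a close relative of FCER1G, from 7.72 to 9.03 to 42.8 to 51.0 (2.52, SE 0.24). The lectin receptors CLEC4D (-4.85, SE 0.81) and CLEC4E (-2.93, SE 0.44), which signal through FCER1G, fell. In the shKDM3B cells 3 of 10 rose and 3 fell, near the 24.0% and 18.3% of all genes, with CD300LB and TYROBP again up and CLEC4D and CLEC4E again down. The knockdown lowered 5 of 11 in untreated cells (3.53% of all genes) and raised none, CLEC5A (-2.28, SE 0.42) and SIGLEC14 (unadjusted P = 0.0140) the most, and with ATRA it lowered 2 of 6 (4.37% of all genes), CD300LB (-2.60, SE 0.39) and TYROBP (-1.03, SE 0.21), where TYROBP was 20.4 to 25.4 CPM against 42.8 to 51.0. None of these knockdown calls passed the adjusted test. The interaction was called down for CD300LB (-1.74, SE 0.55, unadjusted P = 0.0145).

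Of 19 activating signalling genes tested, ATRA raised 11 and lowered 3 in each kind of cells, where the lowered share was near that of all genes in the shKDM3B cells (18.3%). The 11 differed, as BTK, a kinase, was called up in the shNC cells (0.61, SE 0.21) and not in the shKDM3B cells (0.28, SE 0.12), and VAV3, an exchange factor, in the shKDM3B cells (adjusted p = 0.00127) and not in the shNC cells (0.58, SE 0.22), with neither called in the interaction. FGR, a SRC family kinase, rose from 1.80 to 3.26 CPM to 436 to 553 in the shNC cells (log2 fold change 7.65, SE 0.39) and from 0.460 to 0.462 to 198 to 252 in the shKDM3B cells (8.96, SE 0.23). The adaptor GAB2 (-3.18, SE 0.30, and -3.22, SE 0.20) and the kinase FYN (-2.96, SE 0.37, and -3.35, SE 0.56) fell in both. PIK3CG, a phosphoinositide 3-kinase subunit, was among the largest rises in the shNC cells (1.74, SE 0.35), and WAS, an actin regulator, in the shKDM3B cells (1.84, SE 0.22). The knockdown lowered 4 of 19 in untreated cells (3.53% of all genes), FGR (-2.44, SE 0.47) and FYN (-1.08, SE 0.32) the most, and 3 of 19 with ATRA (4.37%), FGR (-1.13, SE 0.21) and the adaptor LAT2 (-0.80, SE 0.22) the most, with none passing the adjusted test. FGR was called up in the interaction (1.29, SE 0.45, unadjusted P = 0.0243), again not after adjustment.

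Of 11 inhibitory signalling genes tested in the shNC cells, ATRA raised 6 (15.0% of all genes) and lowered none. The adaptor DOK2 rose from 1.05 to 1.64 CPM to 3.13 to 3.55 (log2 fold change 1.34, SE 0.45), and LILRB2, an inhibitory receptor, went from 0 and 1 counts to 10 and 16. Of 9 tested in the shKDM3B cells, 3 rose, PECAM1 (1.06, SE 0.16) and CBL (0.81, SE 0.12) the most, and INPP5D, the phosphatase that FCGR2B recruits, fell (-0.71, SE 0.19, adjusted p = 0.0133), against 24.0% raised and 18.3% lowered of all genes. DOK2 was lower with the knockdown in untreated cells (-1.89, SE 0.50) and with ATRA (-2.01, SE 0.45), and CBLB was called up in untreated cells (0.65, SE 0.27), among 10 tested in each. Neither passed the adjusted test.

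**Figure D2:**
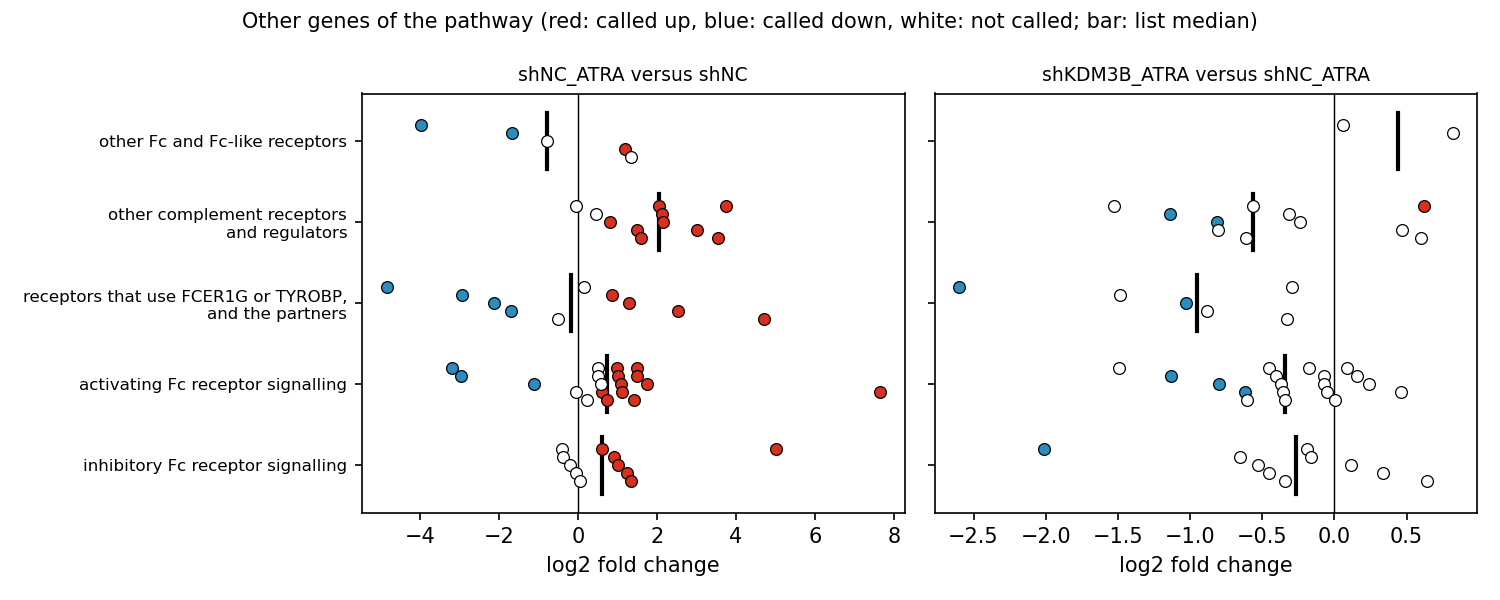
Log2 fold changes (x axes, with a different range in each panel) of the tested genes of the 5 pathway lists with ATRA in the shNC cells and with the knockdown in ATRA-treated cells, with a point per gene (red for called up, blue for called down) and a bar at each list's median. With ATRA in the shNC cells 9 of 11 complement genes were called up, whereas the genes that use FCER1G or TYROBP lie on both sides of 0.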

How the data were processed

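Reads of TruSeq libraries made from total RNA were trimmed (Trim Galore), aligned to hg38 (HISAT2) and counted per gene (HTSeq) by the authors. The deposited files hold these raw counts, 1 whole number per gene name, with no normalization. Versions and the counting's strand setting are not given in the sources used here. The methods name a RefSeq annotation, but the files list 56470 names without ATRA and 56609 with it, 37526 of them in common. Summary lines of HTSeq were left out of library sizes.

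Groups came from the sample titles. Each comparison of 2 groups was fitted alone in edgeR 4.0.16 (R 4.3.3) with filterByExpr, TMM factors and quasi-likelihood F tests, over the names common to its libraries, and the interaction over all 8. The SE is the size of the log2 fold change over the square root of F. Adjusted p-values are Benjamini-Hochberg values over all genes of a fit. The call rule is the study's (unadjusted P under 0.05 and 1.5-fold), which used DESeq2, here (1.42.0) an alternative. An exact permutation test of 2 against 2 libraries cannot go below 0.333, so none was run. Limits for a count of 0 (3 counts) cover counting error only. The procedure was tested on simulated data.

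The receptor genes and the pathway and marker lists were chosen with earlier results of these data known. Of the lists, the text names for a comparison the 2 called genes that rose most and the 2 that fell most, besides KDM3B, the 2 genes most like each receptor gene in log2 CPM (prior count 2), and others only to describe a marker list or a role. The summed level of the monocyte and macrophage markers is not reported here. Gene positions and lengths are from GENCODE v44, and promoter windows from RefSeq (GRCh38.p14). Alternatives were scaling by library size alone or by the size factors of DESeq2, no low-count filter, at least 10 counts in 2 libraries, DESeq2, adjusted p-values, all 8 libraries in 1 fit, the replicate number as a block, the longest transcript as length, each library left out in turn and, added after seeing the data, the summed counts of near-identical copies.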

Additional observations from a re-analysis of the deposited data

How the results depend on the processing

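The calls of FCER1G and FCGRT with ATRA, and of FCER1G with the knockdown, kept their direction and their side of the threshold under every alternative run, apart from the adjusted p-values of the knockdown comparisons. At an adjusted p under 0.05 by edgeR, 0 receptor genes were called with the knockdown without ATRA (2 otherwise) and 0 with it (1 otherwise), while DESeq2 gave FCER1G an adjusted p of 0.00101 and 0.00283. The genes called then numbered 3, 0, 1604 and 0 for the knockdown, the knockdown with ATRA, ATRA in shNC and the interaction, against 971, 969, 3213 and 540 with the unadjusted P. In the interaction, 1 receptor gene, CR1, was called without the low-count filter (with 941 genes in all), with DESeq2 and with the replicate block. With the longest transcript as length, 20 levels per kilobase of a receptor gene in a group moved by more than the SD between replicates and 12 did not. With library size alone the share of higher genes among the interaction calls moved from 31.9% to 45.6%, and among the calls with ATRA in shNC from 58.1% to 48.9%. Summing near-identical copies turned the log2 fold change of FCGR1A with the knockdown in ATRA-treated cells to 0.19 and that of FCGR2B with ATRA in shNC to 0.010.

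Replicate numbers were not taken as pairs, since no label says that they mark a shared batch. Across genes, libraries with the same number deviated from the mean of their group with a correlation of 0.389 (knockdown), 0.0260 (knockdown with ATRA), -0.0751 (ATRA in shNC) and 0.184 (ATRA in shKDM3B). With the replicate block 1242 genes were called for the knockdown, 525 for the knockdown with ATRA, 2881 and 5445 for ATRA in shNC and shKDM3B, and 538 for the interaction. CR1 was then called up with the knockdown (0.92, unadjusted P = 6.4e-06) and down in the interaction (-2.05, unadjusted P = 0.0102), and FCGR2A turned to 0.014 with the knockdown. The block changed no other call of a receptor gene.

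With 1 library left out, the lone library of a group is assumed to vary like the other group. Calls from such fits therefore do not measure the spread between replicates of that group. Receptor genes called then ranged from 1 (without shNC replicate 1) to 4 (without shNC replicate 2) for the knockdown, from 1 to 3 (without shNC_ATRA replicate 1) for the knockdown with ATRA, from 2 to 5 (without shKDM3B replicate 1 or shKDM3B_ATRA replicate 2) for ATRA in shKDM3B and from 0 to 2 (without shKDM3B_ATRA replicate 2) for the interaction. Genes called in all ranged from 943 to 1650, 134 to 5360, 4953 to 5866 and 285 to 2432 in the same order, and from 1462 to 5142 for ATRA in shNC. The count moved by over 1.5 times without shNC replicate 2 for the knockdown (1650), without any 1 of the 4 libraries for the knockdown with ATRA (2496, 5360, 134 and 284), without either shNC library (1578 and 1462) or shNC_ATRA replicate 1 (5142) for ATRA in shNC, and without shNC replicate 1 (345), shNC_ATRA replicate 2 (2432) or shKDM3B_ATRA replicate 1 (285) for the interaction. Log2 fold changes near 0 changed sign. For FCGR1A they ran from -0.33 to 0.0044 (knockdown), -0.25 to 0.13 (knockdown with ATRA), -0.34 to 0.078 (ATRA in shNC), -0.20 to 0.13 (ATRA in shKDM3B) and -0.12 to 0.27 (interaction). For FCGR2A they ran from -0.32 to 0.39 (knockdown), -0.70 to 0.019 (ATRA in shNC) and -0.61 to 0.098 (interaction), and for FCGR2B from -0.52 to 1.52 (knockdown) and -1.23 to 0.83 (ATRA in shNC). CR1 ran from -1.29 to 0.13 with ATRA in shKDM3B, and the interaction of FCER1G from -0.66 to 0.10. The cause of these changes was not tested. With 2 libraries a group and at most 12 counts of FCGR2B in a shKDM3B_ATRA library, differences of the size of its SE could not be seen.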
